A study of Homo sapiens with 25 samples.

Results

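This account covers 10 genes that were chosen by their measured shift at low or no histidine among genes of the cell surface, the extracellular matrix and cell adhesion. They are MMP9, CDCP1, DOK3, FUT1, CNTN3, CNTN4, GPC3, ADAM11, ST3GAL6 and SLC26A11, which make 10 of 31919 genes in the deposited table. All 10 were found by symbol, and all 10 were among the 18799 genes with 10 or more normalized counts in 2 or more libraries. Because members that are high in a single condition pass such a filter through that condition, nothing is read from that number. The selection states no numeric limit, so there are no members just inside or just outside one. The levels at 25%, 12.5% and no histidine against full medium are what the members were selected on. Every difference of a member that involves a group at 25% or below is therefore given as description, without a test.

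RNA was sequenced from DND-41, a line grown from a human acute lymphoblastic leukaemia of T cells, kept in media with graded histidine, an essential amino acid. On day 9 there were 3 libraries at 12.5%, 3 at 25%, 2 at 50% and 3 at 100% of the usual histidine. On day 6 there were 3 libraries without histidine, 3 at 12.5%, 2 at 25%, 3 at 50% and 3 at 100%, which brings the total to 25 libraries in 9 groups. All of them come from a single line, no other treatment is named, and nothing in the labels says whether replicates came from separate cultures, so the p-values measure a spread between samples that may be technical.

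Cells meet their surroundings through a layer of proteins and sugars that is remodelled from several sides. Secreted and membrane-bound proteases cut matrix and surface proteins, glycosyltransferases in the Golgi add fucose or sialic acid to them, and contactins and glypicans are held in the membrane by a lipid anchor. In lymphoid cells this layer governs contact with vessel walls and stroma, and adaptors under the membrane pass its signals on. The group name fits the members only loosely. DOK3 is an adaptor inside the cell, FUT1 and ST3GAL6 act in the Golgi on what the surface carries, SLC26A11 is an anion transporter, and MMP9 is secreted.

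The sum of normalized counts ranged over the libraries from 13.6 M to 16.1 M, with 14425 to 16263 genes at 10 or more. The T-lineage markers summed to between 37011 and 52854 normalized counts per library, with CD3D at 4089 or more in every library, although CD2 stayed at 37.6 or less and PTCRA at 8.14 or less. In 6 libraries the keratins KRT8, KRT18 and KRT19 together reached 119 to 1406 normalized counts, against at most 60.3 in the other libraries. These 6 were replicates 1 and 3 at 25% on day 9, replicates 1 and 2 at 50% on day 6 and replicates 1 and 2 at 100% on day 6. Differences of members that rest on them are given with and without them, and calls of other genes are counted both ways. Of the other epithelial markers, CDH1 reached 64.0 and EPCAM 20.8, both at 25% on day 9. Myeloid markers summed to 9.45 to 73.4 and erythroid markers to 7.89 or less. Fibroblast markers summed to 60.0 or less, highest in replicate 2 at 100% on day 6. Neuron markers summed to 20.2 or less, highest in replicate 2 without histidine. In bulk RNA, fewer cells of one kind and less RNA per cell cannot be told apart.

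The levels took several shapes. MMP9, CDCP1 and DOK3 were high at 25% and below, and on day 6 they were lower without histidine than at 12.5%. FUT1 was higher at 25% than in full medium and higher again at 12.5%. CNTN4 and SLC26A11 were high at 12.5% and without histidine. GPC3, ADAM11 and ST3GAL6 were lowest without histidine, and CNTN3 had no single direction. Values below are deposited normalized counts, which are not divided by gene length and so are not compared between genes. They are listed in the order of the replicate numbers.

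**Figure D1:**
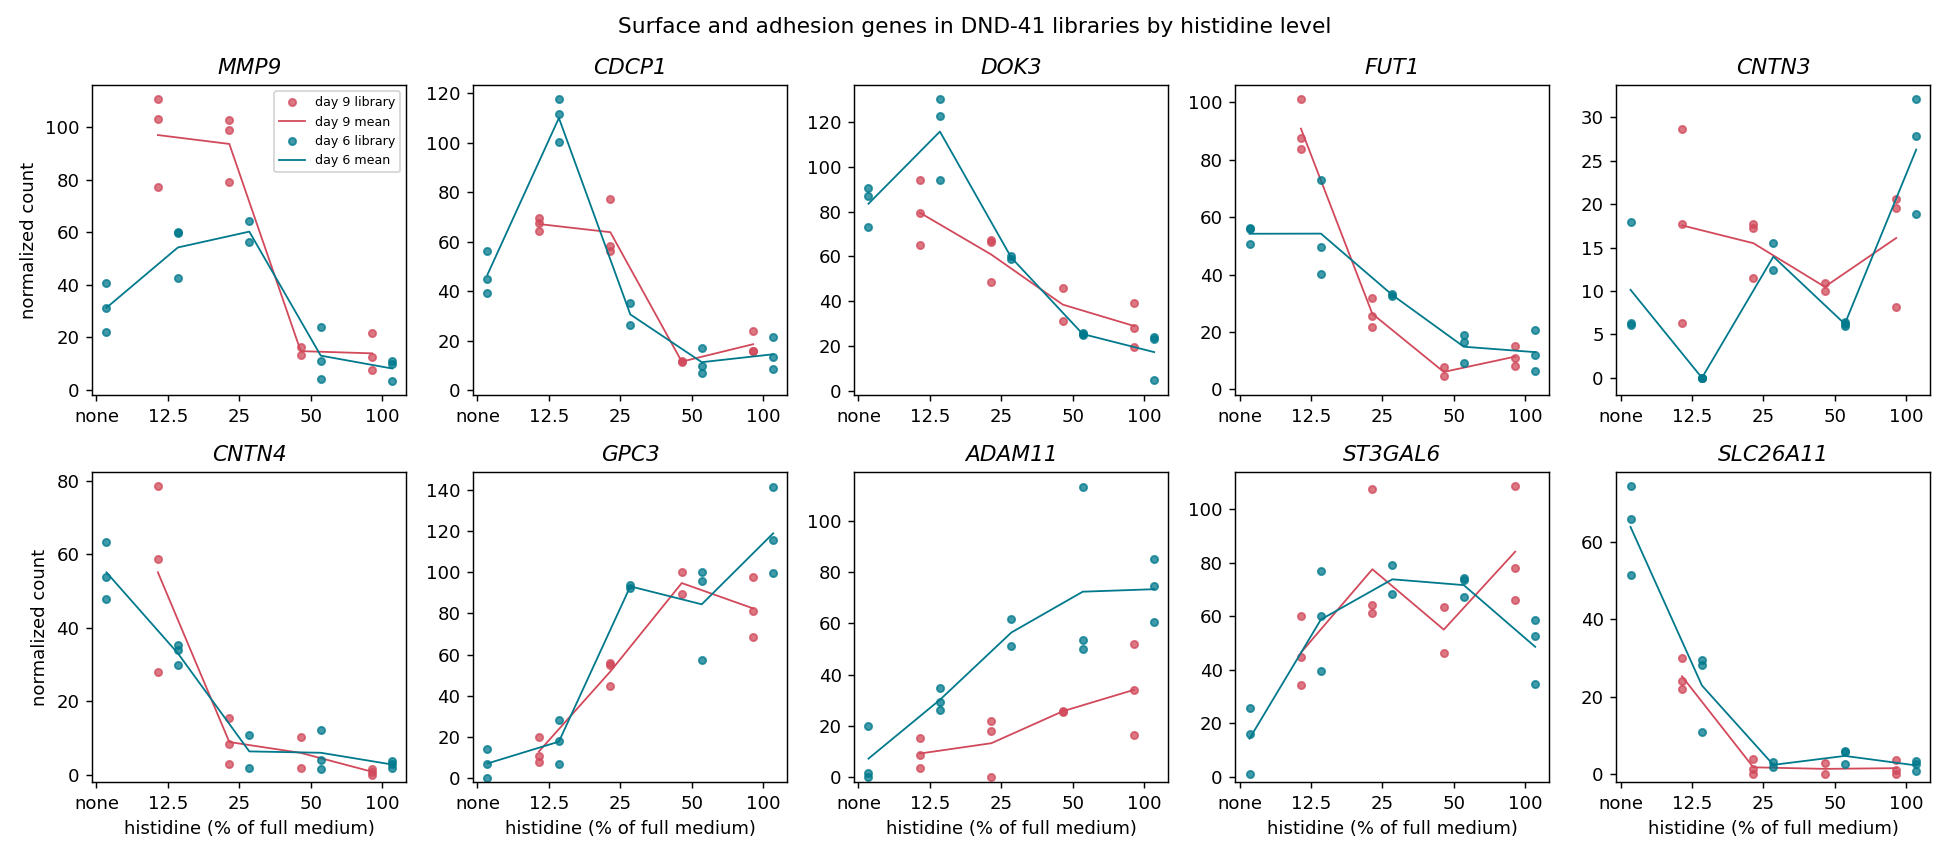
Normalized count of each gene on a linear axis by histidine level, with 1 point per library, lines through the group means, and day 9 and day 6 in different colours. MMP9 lies between 42.6 and 111 at 12.5% and 25%, and at 24.0 or less at 50% and 100%.

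Promoter sequences are shown for those members high at 25% that have a start in the RefSeq table (build GRCh38.p14, minus strand, read 5′ to 3′, from 250 bases before the start to 50 after it). Capitals mark matches to the searched motifs on either strand. Those were the AP-1 site TGANTCA, the C/EBP-ATF response element TGATGNAA, the GC box GGGCGG, the E-box CACGTG and the sterol regulatory element TCACNCCAC. MMP9, GPC3, ADAM11 and SLC26A11 have no entry in that table. The 4 sequences are CDCP1 at chr3:45146329-45146628, FUT1 at its upstream start chr19:48755309-48755608 and at its downstream start chr19:48752592-48752891, and DOK3 at chr5:177510352-177510651.
CDCP1: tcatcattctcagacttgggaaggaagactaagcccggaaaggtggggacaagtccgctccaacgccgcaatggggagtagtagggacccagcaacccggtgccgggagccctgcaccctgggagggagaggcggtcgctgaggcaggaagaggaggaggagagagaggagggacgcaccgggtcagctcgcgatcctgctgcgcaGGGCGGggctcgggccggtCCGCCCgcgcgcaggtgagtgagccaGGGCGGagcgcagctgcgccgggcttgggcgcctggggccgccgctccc
FUT1 upstream start: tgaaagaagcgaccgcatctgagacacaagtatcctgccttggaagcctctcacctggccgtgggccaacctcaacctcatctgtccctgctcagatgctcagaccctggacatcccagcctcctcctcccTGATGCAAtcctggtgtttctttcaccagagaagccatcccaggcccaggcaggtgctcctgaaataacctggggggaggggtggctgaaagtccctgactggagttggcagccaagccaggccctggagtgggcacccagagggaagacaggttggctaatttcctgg
FUT1 downstream start: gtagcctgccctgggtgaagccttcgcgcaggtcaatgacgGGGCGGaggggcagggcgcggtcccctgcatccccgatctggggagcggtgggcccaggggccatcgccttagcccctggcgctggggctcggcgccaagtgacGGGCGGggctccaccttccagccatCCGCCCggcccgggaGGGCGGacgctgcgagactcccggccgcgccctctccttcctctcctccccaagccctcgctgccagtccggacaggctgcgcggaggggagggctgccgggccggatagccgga
DOK3: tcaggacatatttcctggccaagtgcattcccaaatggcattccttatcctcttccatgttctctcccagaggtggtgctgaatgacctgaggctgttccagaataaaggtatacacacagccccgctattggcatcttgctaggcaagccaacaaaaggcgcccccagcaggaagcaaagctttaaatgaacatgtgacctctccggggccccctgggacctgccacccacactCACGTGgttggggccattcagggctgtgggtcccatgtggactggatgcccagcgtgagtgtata

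The CDCP1 window holds 3 GC boxes, and the FUT1 window at the downstream start holds 4. At the upstream start of FUT1 the window holds a single match to the C/EBP-ATF response element, TGATGCAA, whose first base lies 119 bases before the start. The E-box of DOK3 begins 15 bases before the start, and the DOK3 window at its other start held no match. No match overlapped another in the windows printed. Among all 35116 promoters of that table, 45.0% hold the GC box, 7.26% the E-box and 3.62% the C/EBP-ATF response element. The AP-1 site is found in 7.71% of them and the sterol regulatory element in 1.13%, and neither was found in the 12 windows of 6 members. A match is a description of letters and not a site of binding.

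Of the proteases, MMP9 is gelatinase B, a secreted enzyme that degrades gelatin and type IV collagen (chr20:46008908-46016561, plus strand, GENCODE 29 on GRCh38). On day 9 it had 111, 77.0 and 103 normalized counts at 12.5%, 103, 79.0 and 98.8 at 25%, 16.4 and 13.1 at 50% and 21.8, 7.59 and 12.4 at 100%. On day 6 it had 22.1, 40.5 and 31.1 without histidine, 42.6, 59.7 and 60.2 at 12.5%, 64.2 and 56.2 at 25%, 11.0, 24.0 and 4.11 at 50% and 10.0, 3.43 and 11.0 at 100%. The step lay between 50% and 25% on both days, and no library at 25% or 12.5% overlapped one at 50% or 100%. In the order of the group means, the pair at 12.5% and 25% on day 9 overlapped at the top, then the pair at 25% and 12.5% on day 6, then the libraries without histidine. The 4 groups at 50% and 100% overlapped in turn at the bottom.

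Changes are given on the log2(normalized count + 1) scale, which understates the change of low genes, and come from a limma fit, with Benjamini-Hochberg adjustment over 18799 genes where a test is given. Each difference between 2 levels is the lower histidine level minus the higher one. MMP9 was higher at 25% than at 50% by 2.58 ± 0.51 SE on day 9 and by 2.40 ± 0.51 SE on day 6, given without a test because the 25% libraries took part in choosing the members. With the 6 keratin-high libraries left out this difference was 2.35 on day 9 and 3.58 on day 6. That leaves a single library at 25% on day 9 and a single one each at 50% and 100% on day 6, here and in every such value below. In limma's test of 50% against 100% the MMP9 difference was 0.19 ± 0.51 SE on day 9 and 0.46 ± 0.46 SE on day 6, with adjusted p = 1 on both days, and 95% intervals of -0.87 to 1.24 and -0.48 to 1.41. An antisense gene, SLC12A5-AS1, overlaps MMP9 and shares 13.8% of its distinct 31-base stretches on the opposite strand. It stayed between 1.01 and 18.5 normalized counts over all libraries, with 10.9 to 12.5 at 25% on day 9 and 4.38 to 18.2 at 50%. The strand setting of the counting is not given in the sources used here, and the part of this overlap in the MMP9 values was not tested.

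ADAM11 is a membrane protein of the ADAM family that lacks a working protease site and is known mainly from the nervous system (chr17:44759031-44781846, plus strand). Its day 9 libraries had 3.59, 8.68 and 15.3 normalized counts at 12.5%, 0, 21.8 and 17.8 at 25%, 26.0 and 25.4 at 50% and 51.7, 16.4 and 34.0 at 100%. Its day 6 libraries had 19.9, 1.73 and 0 without histidine, 26.2, 34.9 and 29.2 at 12.5%, 61.8 and 51.0 at 25%, 50.1, 53.4 and 113 at 50% and 74.4, 84.9 and 60.5 at 100%. Libraries without histidine lay below all others of day 6, and the 12.5% libraries below those at 25%, 50% and 100%. The groups at 100%, 50% and 25% of day 6, 100% of day 9 and 12.5% of day 6 overlapped in turn, and 25% and 12.5% of day 9 and no histidine overlapped at the bottom. The 25% and 50% libraries did not overlap on day 9, with a difference of -1.82 ± 1.02 SE, and of -0.36 without replicate 1 at 25%, which is listed at 0 and keratin-high. On day 6 the difference was -0.26 ± 1.02 SE. Without the keratin-high libraries it was -0.22 on day 9 and -1.0 on day 6.

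Of the signalling members, CDCP1 is a transmembrane glycoprotein with CUB domains that is phosphorylated by Src-family kinases and is linked to loss of adhesion in tumour cells (chr3:45082278-45146422, minus strand). The day 9 values were 64.3, 69.4 and 67.6 normalized counts at 12.5%, 77.3, 56.0 and 58.1 at 25%, 11.4 and 11.7 at 50% and 15.8, 24.0 and 16.0 at 100%. The day 6 values were 44.8, 39.1 and 56.1 without histidine, 118, 112 and 100.4 at 12.5%, 35.0 and 26.2 at 25%, 7.13, 9.94 and 16.9 at 50% and 8.65, 21.6 and 13.3 at 100%. The 12.5% libraries of day 6 stood above every other group, and the libraries without histidine lay between them and the 25% libraries of that day. In the order of the means, 12.5% and 25% of day 9 and no histidine overlapped in turn, 25% of day 6 stood alone, and neighbours among the groups at 100% and 50% overlapped below it. CDCP1 was higher at 25% than at 50% by 2.35 ± 0.35 SE on day 9 and by 1.42 ± 0.35 SE on day 6, with no overlap between libraries on either day.

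Without the keratin-high libraries the CDCP1 difference was 2.18 on day 9 and 0.80 on day 6. Between 50% and 100% the CDCP1 difference was -0.62 ± 0.35 SE on day 9 (limma adjusted p = 0.996) and -0.32 ± 0.31 SE on day 6 (adjusted p = 1). The 50% libraries of day 9 all lay below those at 100%.

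DOK3 is an adaptor of lymphoid and myeloid cells that is phosphorylated by Src-family kinases and dampens signals from immune receptors (chr5:177501907-177511274, minus strand). Libraries of day 9 held 64.9, 94.2 and 79.5 normalized counts at 12.5%, 48.5, 67.4 and 66.6 at 25%, 31.1 and 45.9 at 50% and 27.9, 39.2 and 19.6 at 100%. Libraries of day 6 held 73.2, 90.6 and 86.9 without histidine, 130.4, 123 and 94.2 at 12.5%, 58.6 and 60.3 at 25%, 25.3, 25.9 and 24.8 at 50% and 4.79, 23.1 and 23.9 at 100%. Every group at 25% or below lay above every group at 50% or 100%. The order of the means on day 6 ran from 12.5%, which stood alone, over none and 25% to 50% and 100%. No histidine, 12.5% of day 9 and both 25% groups overlapped in turn, and so did 50% and 100% of day 9 and 50% of day 6. The DOK3 difference between 25% and 50% was 0.66 ± 0.42 SE on day 9 and 1.20 ± 0.42 SE on day 6, and 0.82 and 1.23 on those days without the keratin-high libraries. At 50% against 100% the difference was 0.43 ± 0.42 SE on day 9 and 0.80 ± 0.38 SE on day 6, the day 6 value with an unadjusted limma p of 0.0469 and adjusted p = 1. Without replicate 1 at 100%, the library at 4.79, the day 6 difference was 0.10.

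Both contactins are neural adhesion molecules of the immunoglobulin superfamily held by a lipid anchor. CNTN4 binds the amyloid precursor protein and the receptor phosphatase PTPRG (chr3:2098813-3057956, plus strand). On day 9 there were 58.8, 78.5 and 28.0 normalized counts at 12.5%, 8.45, 15.4 and 2.92 at 25%, 10.2 and 1.76 at 50% and 1.73, 0 and 0.827 at 100%. On day 6 there were 63.4, 48.0 and 53.8 without histidine, 35.2, 34.0 and 30.0 at 12.5%, 1.98 and 10.8 at 25%, 12.3, 1.62 and 4.12 at 50% and 1.91, 2.88 and 3.68 at 100%. All libraries at 12.5% or without histidine lay at 28.0 or above, and all others at 15.4 or below. Day 9 at 12.5% and no histidine overlapped at the top of the order, 12.5% of day 6 followed, and both 25% and both 50% groups overlapped with 100% of day 6.

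Between 25% and 50% the CNTN4 difference was 0.61 ± 0.74 SE on day 9 and 0.07 ± 0.74 SE on day 6, and 1.56 and 0.21 on those days without the keratin-high libraries. The day 9 value was -0.40 without replicate 2 at 50%. In the step of 50% against 100% on day 9 it was 1.70 ± 0.74 SE, with an unadjusted limma p of 0.0303 and adjusted p = 0.996. That value was 0.69 without replicate 1 at 50% and 2.71 without replicate 2. Transcripts of other genes share 8.22% of the distinct 31-base stretches of CNTN4 on the opposite strand, and CNTN4-AS1 alone shares 6.80%. The part of this sharing in its values was not tested.

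CNTN3 stayed low throughout (chr3:74262568-74521140, minus strand). At day 9 it had 6.33, 17.7 and 28.6 normalized counts at 12.5%, 17.7, 11.5 and 17.3 at 25%, 10.0 and 11.0 at 50% and 8.17, 19.5 and 20.6 at 100%. At day 6 it had 6.32, 6.10 and 18.0 without histidine, was listed at 0 in each of the 3 libraries at 12.5%, and had 15.5 and 12.4 at 25%, 6.44, 5.99 and 6.17 at 50% and 27.8, 18.9 and 32.1 at 100%. The 100% libraries of day 6 lay above all others of that day, and the zeros at 12.5% on day 6 had no counterpart at 12.5% on day 9, where the values overlapped those of every other group of that day. The first 5 groups by mean, both at 100%, both at 25% and 12.5% of day 9, overlapped in turn, as did both 50% groups and no histidine. At 50% against 100% CNTN3 differed by -1.89 ± 0.50 SE on day 6 with no overlap, at an unadjusted limma p of 0.000894 that did not pass after adjustment (adjusted p = 1), and by -0.48 ± 0.55 SE on day 9 (adjusted p = 0.996). With estimated library weights the day 6 difference was -1.81 and passed (limma adjusted p = 0.0238). CNTN3 passed in this step in 1 of 16 alternatives. The share of all genes that passed in the weighted fit is not given here, so nothing is read from this pass. The single libraries left once the keratin-high ones are dropped differed by -2.21. For 25% against 50% the difference was 0.50 ± 0.55 SE on day 9 and 1.05 ± 0.55 SE on day 6, and 0.13 and 1.05 on those days without them.

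GPC3 is a glypican, a heparan sulfate proteoglycan that modulates Wnt and hedgehog signals at the membrane (chrX:133535745-133985895, minus strand). On day 9 it had 8.01, 19.9 and 10.9 normalized counts at 12.5%, 44.5, 56.0 and 54.9 at 25%, 100.2 and 89.3 at 50% and 81.1, 68.6 and 97.6 at 100%. On day 6 it had 7.01, 14.3 and 0 without histidine, 6.74, 18.2 and 28.3 at 12.5%, 92.5 and 93.9 at 25%, 95.7, 57.3 and 100.3 at 50% and 142, 116 and 99.6 at 100%. No library at 12.5% or without histidine exceeded 28.3, and no other fell under 44.5. The 25% libraries lay below those at 50% on day 9 and within their range on day 6. In the order of the means 100% of day 6, 50% of day 9, 25% and 50% of day 6 and 100% of day 9 overlapped in turn, 25% of day 9 stood alone, and both 12.5% groups and no histidine overlapped at the bottom. The difference between 25% and 50% was -0.86 ± 0.69 SE on day 9 and 0.18 ± 0.69 SE on day 6. With the keratin-high libraries left out these were -0.75 and -0.11.

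Of the glycosyltransferases, FUT1 adds the fucose of the H antigen (chr19:48748011-48755390, minus strand). Its day 9 libraries had 101, 87.7 and 83.6 normalized counts at 12.5%, 25.4, 31.8 and 21.8 at 25%, 4.55 and 7.67 at 50% and 10.9, 15.2 and 8.25 at 100%. Its day 6 libraries had 55.8, 50.7 and 56.1 without histidine, 73.1, 49.5 and 40.2 at 12.5%, 33.1 and 32.6 at 25%, 16.6, 18.8 and 9.25 at 50% and 12.0, 20.6 and 6.42 at 100%. On each day the 25% libraries lay below those at 12.5% and above those at 50% and 100%, with no overlap. Of the 8 neighbouring pairs in the order of its group means 3 overlapped, which were 12.5% and none on day 6, 50% and 100% on day 6, and 100% of both days. FUT1 was higher at 25% than at 50% by 1.96 ± 0.40 SE on day 9 and by 1.15 ± 0.40 SE on day 6.

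Leaving out the keratin-high libraries made the FUT1 difference between 25% and 50% 2.24 on day 9 and 1.72 on day 6. At 50% against 100% it was -0.81 ± 0.40 SE on day 9, with the 50% libraries below all at 100% (limma adjusted p = 0.996), and 0.26 ± 0.36 SE on day 6 (adjusted p = 1). The 2 libraries left on day 6 once the keratin-high ones are dropped differed by 0.47. Other transcripts share 6.86% of its distinct 31-base stretches on the same strand, spread over many genes with at most 1.10% each.

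ST3GAL6 adds sialic acid in the making of selectin ligands (chr3:98732236-98821201, plus strand). The day 9 values were 60.2, 34.2 and 45.0 normalized counts at 12.5%, 108, 64.1 and 61.3 at 25%, 63.7 and 46.5 at 50% and 77.9, 109 and 66.1 at 100%. The day 6 values were 16.0, 1.05 and 25.8 without histidine, 77.0, 39.6 and 60.0 at 12.5%, 79.3 and 68.5 at 25%, 74.5, 73.5 and 67.1 at 50% and 34.6, 52.6 and 58.7 at 100%. The libraries without histidine lay below every other library. The other 8 groups overlapped in turn, so 7 of 8 neighbouring pairs overlapped. Groups further apart in that order did not all overlap. On day 9 the libraries at 12.5% and at 50% lay below those at 100%, and on day 6 those at 50% lay above. At 50% against 100% the difference was -0.59 ± 0.62 SE on day 9 and 0.58 ± 0.56 SE on day 6, and neither passed. Between the single libraries left on day 6 without the keratin-high ones it was 0.19. The ST3GAL6 difference between 25% and 50% was 0.46 ± 0.62 SE on day 9 and 0.04 ± 0.62 SE on day 6, and 0.23 and 0.13 on those days without the keratin-high libraries. Of its distinct 31-base stretches 4.43% are shared on the same strand with the pseudogene PDLIM1P4 and 3.10% on the opposite strand with DCBLD2, which overlaps it. DCBLD2 lay between 282 and 322 normalized counts without histidine and between 285 and 337 at 100% on day 6. It was higher at 12.5% (421 to 425) and 25% (378 to 392) of that day, with 295 to 309 at 50%. On day 9 it had 371 to 440 at 12.5%, 375 to 439 at 25%, 278 to 354 at 50% and 312 to 324 at 100%. The part of this sharing in the ST3GAL6 values was not tested.

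SLC26A11 is a transporter of sulfate and other anions (chr17:80219699-80253500, plus strand). Libraries of day 9 held 29.9, 22.1 and 24.0 normalized counts at 12.5%, 1.54, 0 and 4.00 at 25%, 0 and 2.90 at 50% and 1.27, 0 and 3.63 at 100%. Libraries of day 6 held 74.3, 65.9 and 51.4 without histidine, 11.0, 29.6 and 28.3 at 12.5%, 1.82 and 3.14 at 25%, 5.68, 5.98 and 2.72 at 50% and 2.64, 3.58 and 0.788 at 100%. No library at 25% or more exceeded 5.98, while those without histidine lay above all at 12.5% on either day. The 12.5% groups of both days overlapped, as did the 6 groups at 25%, 50% and 100% in turn. The difference between 25% and 50% was 0.24 ± 0.73 SE on day 9 and -0.71 ± 0.73 SE on day 6, near the floor of the table. With the keratin-high libraries left out it was -0.98 on day 9 and -0.12 on day 6.

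Against full medium, the levels that chose the members read as follows. At 12.5% on day 9 SLC26A11 was higher by 3.58 ± 0.66 SE and CDCP1 by 1.82 ± 0.31 SE on the log2 scale, and ADAM11 differed by -1.82 ± 0.91 SE and ST3GAL6 by -0.85 ± 0.56 SE. Without histidine on day 6, SLC26A11 differed by 4.37 ± 0.66 SE, CNTN4 by 3.89 ± 0.66 SE, GPC3 by -4.58 ± 0.62 SE and ADAM11 by -4.26 ± 0.91 SE. ST3GAL6 differed there by -2.31 ± 0.56 SE, and by -1.18 without replicate 2 of that group. With each library of the 2 groups left out, SLC26A11 ran from 3.97 to 4.65 and CNTN4 from 3.71 to 4.05. GPC3 ran from -5.39 to -3.42 and ADAM11 from -5.48 to -3.29. These ranges include the fit without no-histidine replicate 1, whose day labels differ. Without the keratin-high libraries, the differences without histidine were 5.16 for SLC26A11, 3.57 for CNTN4, -4.34 for GPC3, -4.00 for ADAM11 and -2.61 for ST3GAL6. The difference without histidine against 12.5% on day 6 was -1.23 ± 0.31 SE for CDCP1, -0.80 ± 0.46 SE for MMP9, -2.56 ± 0.56 SE for ST3GAL6 and 1.54 ± 0.66 SE for SLC26A11, with no overlap between libraries. Without replicate 2 of the libraries lacking histidine the ST3GAL6 value was -1.44. At 25% on day 6 MMP9 differed from full medium by 2.87 ± 0.51 SE and DOK3 by 2.00 ± 0.42 SE, against 0.14 ± 0.73 SE for SLC26A11. The keratin-high libraries left out, these were 2.35 for MMP9, 1.28 for DOK3 and 0.93 for SLC26A11, and DOK3 was at 1.30 without replicate 1 at 100% alone. CNTN4 at 25% on day 6 differed by 0.66 ± 0.74 SE, by -0.33 without replicate 3 at 25% and by 0.34 without the keratin-high libraries. ADAM11 at 25% on day 9 differed by -2.08 ± 0.91 SE, by -0.62 without replicate 1 at 25% and by -0.48 without the keratin-high libraries.

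**Figure D2:**
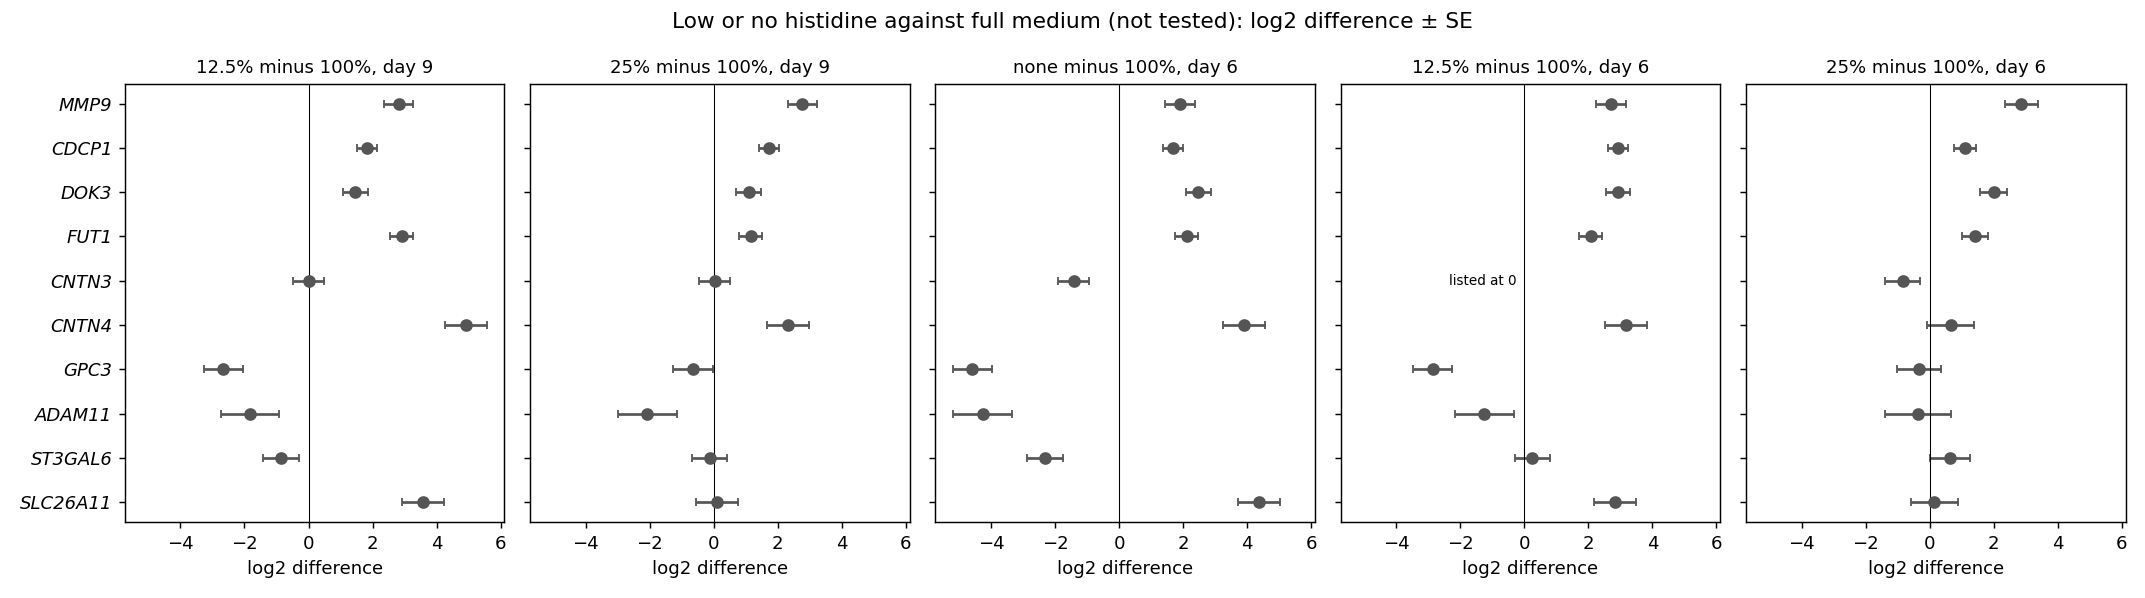
Log2 difference (± SE, log2(normalized count + 1) scale) of each gene at low or no histidine minus full medium, the comparisons that chose the genes, without a test. CNTN3 at 12.5% on day 6 was listed at 0 and has no value, while SLC26A11 is near 0 at 25% and at 4.37 without histidine.

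**Figure D3:**
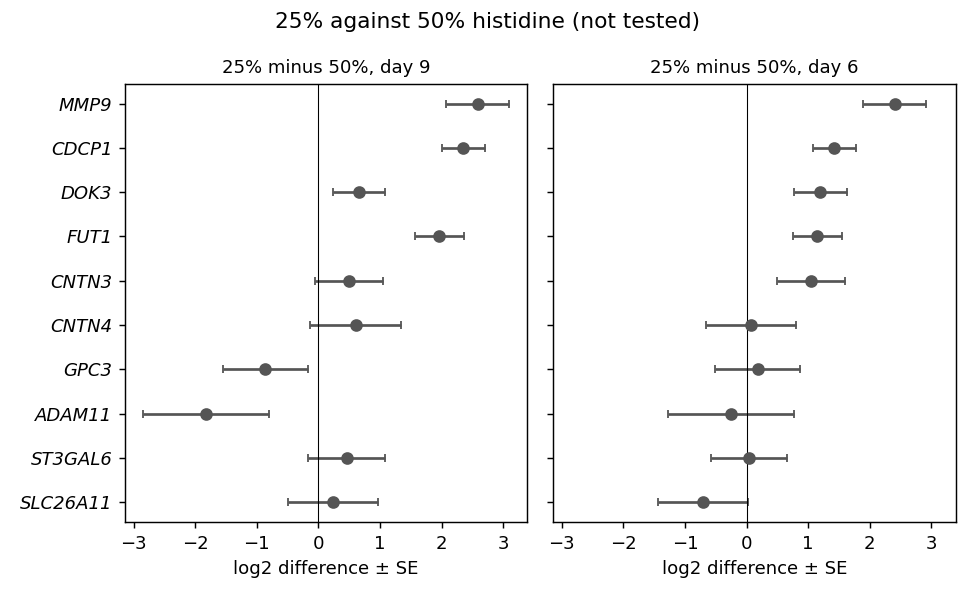
Log2 difference (± SE, log2(normalized count + 1) scale) of each gene at 25% minus 50% histidine on day 9 and on day 6, without a test. MMP9 has 2.58 on day 9 and 2.40 on day 6, and CDCP1 has 2.35 and 1.42.

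The B-cell list, 5 of whose 7 genes are in the table, summed to 18984 to 22795 normalized counts at 25% against 17318 to 19793 at 50% on day 9, and to 19331 to 21275 at 25% against 12314 to 15345 at 50% on day 6. Lower levels went the other way. On day 9 the sum was 9716 to 11511 at 12.5% against 14625 to 18131 at 100%. On day 6 it was 9674 to 13269 without histidine and 11102 to 16935 at 12.5%, against 15270 to 16901 at 100%. Nearly all of the sum is CD79A, a chain of the B-cell receptor complex. The part of these differences in the members' values was not tested.

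Tests were run on the comparisons without a group at 25% or below. Between 50% and 100%, limma called 0 of 10 members on day 9 (1 at an unadjusted p under 0.05, CNTN4), where 0.00532% of genes passed and 906 had an unadjusted p under 0.05. On day 6 limma called 0 of 10 (2 at an unadjusted p under 0.05, DOK3 and CNTN3), where 0% of genes passed and 695 had an unadjusted p under 0.05. The 100% libraries also stand in the comparisons that chose the members. Without the keratin-high libraries 1 library remains at 50% and 1 at 100% on day 6, and between these the difference was -1.23 for MMP9, 0.32 for CDCP1 and 0.05 for DOK3. For the difference between days of this step limma called 0 members and 0% of genes, with 0 members and 802 genes at an unadjusted p under 0.05.

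**Figure D4:**
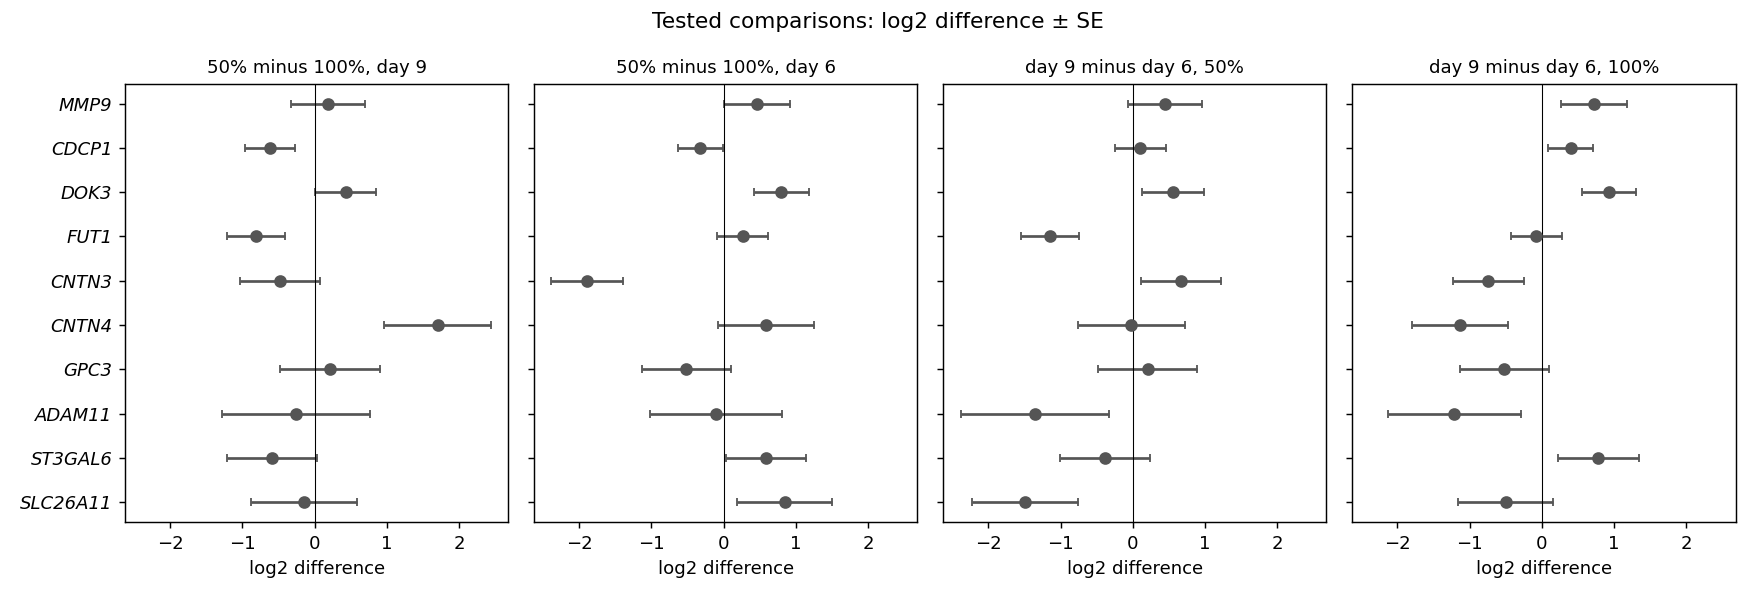
Log2 difference (± SE) of each gene in the tested comparisons, at 50% minus 100% histidine on each day and on day 9 minus day 6 at 50% and at 100%. None of the 10 genes passed limma's adjusted threshold in these panels, and CNTN3 at 50% minus 100% on day 6 lies at -1.89.

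Time in culture was tested at the levels the selection did not use as low. At 100%, limma called 0 of 10 members between day 9 and day 6 (1 at an unadjusted p under 0.05), where 2.17% of genes passed and 2936 had an unadjusted p under 0.05. That member was DOK3, higher on day 9 by 0.93 ± 0.38 SE (adjusted p = 0.225), with overlapping libraries, and by 0.24 without replicate 1 of day 6, and by 0.21 without all keratin-high libraries. At 50%, limma called 0 of 10 (1 at an unadjusted p under 0.05), where 2.12% of genes passed and 3649 had an unadjusted p under 0.05. FUT1 was the one, with a difference of -1.14 ± 0.40 SE and no overlap (adjusted p = 0.130), and of -0.56 without the keratin-high libraries. ADAM11 differed by -1.21 ± 0.91 SE at 100% and -1.36 ± 1.02 SE at 50%, and neither passed. These were -0.95 and -2.10 without the keratin-high libraries. At 25% ADAM11 differed between the days by -2.92 ± 1.02 SE and CDCP1 by 1.04 ± 0.35 SE, and at 12.5% FUT1 differed by 0.77 ± 0.36 SE and CDCP1 by -0.70 ± 0.31 SE, as description. The 25% values were -1.32 for ADAM11 and 0.87 for CDCP1 without the keratin-high libraries, and ADAM11 was at -1.46 without replicate 1 of day 9 alone.

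Other genes of the same families and of leukocyte adhesion were counted from 11 lists, drawn up by family. Of 188 listed genes 104 were tested. At 12.5% on day 9, 15 rose and 8 fell against full medium, where 9.35% of all genes rose and 11.5% fell. Without histidine on day 6, 21 rose and 17 fell, where 13.3% rose and 16.5% fell over all genes, and at 12.5% on day 6, 15 rose and 13 fell, where 11.7% rose and 15.3% fell. The median log2 change of the listed genes was 0.04, -0.04 and 0.01 in that order of comparisons, against 0.03, 0.03 and 0.04 over all genes. The keratin-high libraries include replicates 1 and 2 at 100% on day 6, so that leaving them out keeps a single library there. Fewer listed genes then passed in either direction, both without histidine and at 12.5% on day 6. The share of all genes that passed in that fit is not given here, so nothing is read from this drop. Leaving out replicate 1 at 100% on day 6 alone left 7 that fell at 12.5% on that day, and nothing is read from that count either. Of the genes named below from these lists, APP left aside, 22 were called without histidine and 18 at 12.5% on day 6. All of these kept their sign without the keratin-high libraries, but not all passed there. The calls lost were those of MMP15, TIMP2, ADAM8, ST3GAL1, ST3GAL2, ITGA6 and PODXL without histidine (limma adjusted p = 0.0668 to 0.173) and of ADAM8, FUT8, SLC26A6, ITGA5 and PODXL at 12.5% on day 6 (limma adjusted p = 0.0516 to 0.177).

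**Figure D5:**
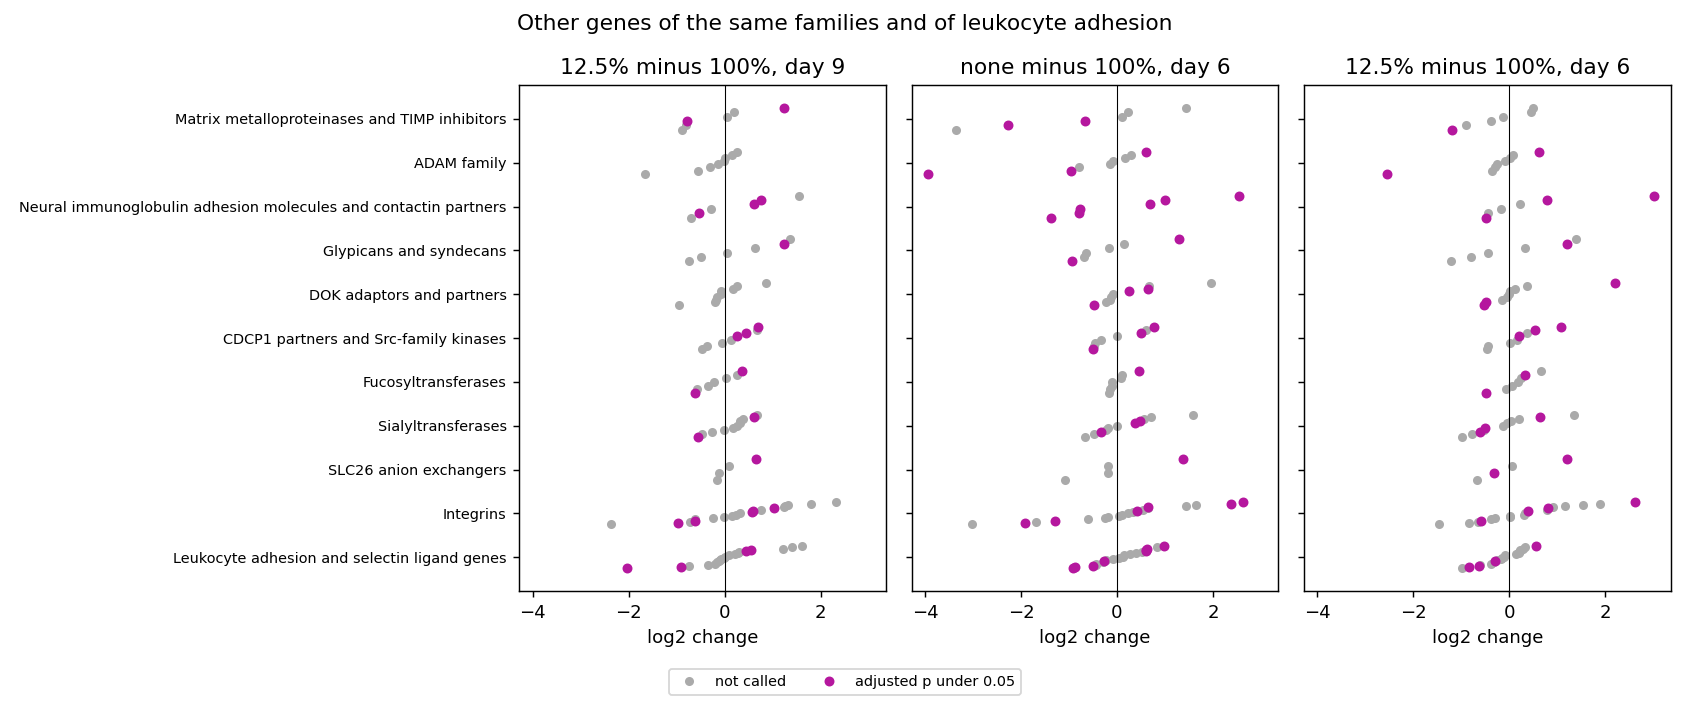
Log2 change of each tested gene of the 11 lists against full medium, with adjusted p under 0.05 in purple. Called genes lie on both sides of 0 in most lists.

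Among matrix metalloproteinases and their TIMP inhibitors, 6 genes were tested beside MMP9. MMP15, a membrane-bound metalloproteinase, fell at 12.5% on day 9 (log2 change -0.79, limma adjusted p = 0.00322), without histidine (log2 change -0.67, limma adjusted p = 0.00688) and at 12.5% on day 6 (log2 change -1.19, limma adjusted p = 4.07e-05). In this list 1 gene rose and 1 fell at 12.5% on day 9, none rose and 2 fell without histidine, and none rose and 1 fell at 12.5% on day 6. TIMP2, an inhibitor of these enzymes, fell without histidine, with 24.5 ± 22.4 normalized counts against 93.0 ± 13.0 at 100% (SD, n = 3 each, log2 change -2.28 ± 0.48 SE, limma adjusted p = 0.000707). In the ADAM list of 8 tested genes none passed at 12.5% on day 9, 1 rose and 2 fell without histidine, and 1 rose and 1 fell at 12.5% on day 6. ADAM22, like ADAM11 without a working protease site, fell without histidine (log2 change -0.96, limma adjusted p = 0.000110), and the leukocyte protease ADAM8 rose there (log2 change 0.62, limma adjusted p = 0.0204).

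Of 6 tested partners and relatives of the contactins, 2 rose and 1 fell at 12.5% on day 9, 3 rose and 3 fell without histidine, and 2 rose and 1 fell at 12.5% on day 6. PTPRG, the phosphatase that binds contactins, rose at 12.5% on day 9 (log2 change 0.75, limma adjusted p = 0.00144), without histidine (log2 change 1.00, limma adjusted p = 3.10e-05) and at 12.5% on day 6 (log2 change 0.78, limma adjusted p = 0.000743). APLP2, a relative of the amyloid precursor protein, fell in all 3 comparisons, with 1981 ± 143 normalized counts against 3355 ± 278 at 100% (SD, n = 3 each, log2 change -0.76 ± 0.08 SE, limma adjusted p = 5.86e-08) without histidine. APP, the amyloid precursor protein itself, was below the mean required of named genes and is given after its values were seen. It rose without histidine (log2 change 2.55, limma adjusted p = 0.0281), with 15.2, 45.0 and 41.2 normalized counts against 7.93, 16.5 and 0 at 100%, and at 12.5% on day 6 (log2 change 3.01, limma adjusted p = 0.0116), with 33.8, 40.4 and 56.2. Without the keratin-high libraries only the 100% library at 0 is left, and these changes were 4.98 and 5.44. At 12.5% on day 9 APP did not pass, with 72.7, 50.0 and 24.0 against 10.4, 17.9 and 16.6 at 100%. ALCAM, an adhesion molecule of activated leukocytes, fell without histidine (log2 change -0.78, limma adjusted p = 6.26e-05). Of 6 tested glypicans and syndecans, GPC2 rose in all 3 comparisons, with 222 ± 13.2 normalized counts against 95.0 ± 23.6 at 100% (SD, n = 3 each, log2 change 1.24 ± 0.18 SE, limma adjusted p = 2.83e-05) at 12.5% on day 9, log2 change 1.29, limma adjusted p = 6.51e-06 without histidine and log2 change 1.21, limma adjusted p = 3.14e-05 at 12.5% on day 6. GPC4 fell without histidine (log2 change -0.93, limma adjusted p = 0.000394). GPC3 was low where its relative GPC2 was high.

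Of 9 tested DOK adaptors and partners none passed at 12.5% on day 9, 2 rose and 1 fell without histidine, and 1 rose and 2 fell at 12.5% on day 6. DOK1, another adaptor of the family, fell without histidine (log2 change -0.48, limma adjusted p = 0.0111) and at 12.5% on day 6 (log2 change -0.53, limma adjusted p = 0.00712), and CSK, the kinase that holds Src-family kinases in check, fell at 12.5% on day 6 (log2 change -0.49, limma adjusted p = 0.00115). DOK4 rose without histidine (log2 change 0.66, limma adjusted p = 0.00623). Of 8 tested partners of CDCP1 and Src-family kinases 3 rose and none fell at 12.5% on day 9, 2 rose and 1 fell without histidine, and 3 rose and none fell at 12.5% on day 6. The Src-family kinase YES1 rose in all 3 comparisons, with 468 ± 10.7 normalized counts against 274 ± 32.2 at 100% (SD, n = 3 each, log2 change 0.78 ± 0.12 SE, limma adjusted p = 1.89e-05) without histidine. FGR rose at 12.5% on day 9 (log2 change 0.69, limma adjusted p = 0.0359) and on day 6 (log2 change 1.07, limma adjusted p = 0.00131), and BLK fell without histidine (log2 change -0.50, limma adjusted p = 7.56e-05).

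Of 7 other tested fucosyltransferases 2 passed in any of these comparisons. FUT8, which adds the core fucose of N-glycans, rose in all 3 comparisons, by 0.37 at 12.5% on day 9, 0.46 without histidine and 0.33 at 12.5% on day 6. POFUT1, which adds fucose to Notch receptors, fell at 12.5% on day 9 (log2 change -0.62, limma adjusted p = 0.000231) and on day 6 (log2 change -0.49, limma adjusted p = 0.00165). Of 11 other tested sialyltransferases 1 rose and 1 fell at 12.5% on day 9, 2 rose and 1 fell without histidine, and 1 rose and 2 fell at 12.5% on day 6. ST3GAL1 rose in all 3 comparisons, with 688 ± 40.2 normalized counts against 456 ± 92.5 at 100% (SD, n = 3 each, log2 change 0.61 ± 0.11 SE, limma adjusted p = 0.000431) at 12.5% on day 9. ST3GAL2 rose without histidine (log2 change 0.38, limma adjusted p = 0.00100) and ST6GALNAC6 fell at 12.5% on day 9 (log2 change -0.55, limma adjusted p = 0.0160). Of 4 other tested SLC26 genes, SLC26A1, a sulfate transporter, rose at 12.5% on day 9 (log2 change 0.66, limma adjusted p = 0.0251), without histidine (log2 change 1.38, limma adjusted p = 1.41e-05) and at 12.5% on day 6 (log2 change 1.20, limma adjusted p = 0.000140). SLC26A6 fell at 12.5% on day 6 (log2 change -0.32, limma adjusted p = 0.0274).

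Of 19 tested integrin genes 3 rose and 2 fell at 12.5% on day 9, 4 rose and 2 fell without histidine, and 3 rose and 1 fell at 12.5% on day 6. ITGA6, a subunit of laminin receptors, and ITGA5, a subunit of the fibronectin receptor, rose in all 3 comparisons. ITGA6 had 892 ± 98.3 normalized counts against 438 ± 37.8 at 100% (SD, n = 3 each, log2 change 1.02 ± 0.10 SE, limma adjusted p = 1.38e-07) at 12.5% on day 9, and ITGA5 1135 ± 34.0 normalized counts against 768 ± 22.0 at 100% (SD, n = 3 each, log2 change 0.56 ± 0.08 SE, limma adjusted p = 3.58e-05). ITGB2, the shared subunit of the leukocyte integrins, fell at 12.5% on day 9 (log2 change -0.62, limma adjusted p = 5.63e-05) and on day 6 (log2 change -0.59, limma adjusted p = 7.40e-05). Of 20 tested genes of leukocyte adhesion and selectin ligands 2 rose and 2 fell at 12.5% on day 9, 4 rose and 4 fell without histidine, and 1 rose and 3 fell at 12.5% on day 6. PODXL, a sialomucin, fell in all 3 comparisons, with 34.4 ± 3.35 normalized counts against 148 ± 42.5 at 100% (SD, n = 3 each, log2 change -2.04 ± 0.25 SE, limma adjusted p = 3.74e-06) at 12.5% on day 9. SELPLG, the P-selectin ligand, rose without histidine (log2 change 0.62, limma adjusted p = 5.40e-06), and CD48 rose there (log2 change 0.98, limma adjusted p = 6.04e-05) and at 12.5% on day 9 (log2 change 0.56, limma adjusted p = 0.0169).

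Likeness of pattern was measured by Pearson's r in log2 values over the 25 libraries, among 11327 other named genes, as a description of points that share libraries and histidine levels. MMP9 was most like LINC01260 (r = 0.95) and PDCD4 (r = 0.93), CDCP1 like ETV6 and CELF1 (r = 0.93 each), and DOK3 like PLEKHA1 (r = 0.91) and MC1R (r = 0.88). FUT1 was most like SH3BP5 (r = 0.93) and C6orf62 (r = 0.90), CNTN4 like MXD1 (r = 0.91) and RAB37 (r = 0.90), and SLC26A11 like PCDHB14 (r = 0.90). GPC3 was most like CAMK2N2 and ADGRG1 (r = 0.92 each), ADAM11 like UNC5C (r = 0.90) and ZNF331 (r = 0.83), and ST3GAL6 like USP28 and JAZF1 (r = 0.82 each). For CNTN3 the nearest were MIR3648-1 and MIR3648-2 (r = 0.84 each), copies with the same r whose reads may be shared. Among the members themselves the highest r was 0.84, between CDCP1 and DOK3, and the lowest was -0.78, between GPC3 and SLC26A11.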

How the data were processed

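Total RNA of DND-41 cells went into strand-specific libraries, per the labels' protocols. Values in the deposited table are a signal, namely the normalized count of each gene, which the authors made with kallisto 0.50.1, DESeq2 1.44.0 and the GRCh38 build. FastQC 0.11.9 is listed too. Both statements are per the submitters' processing notes. Which annotation release and which strand setting served for counting is not given in the sources used here. Scaling by size factors hides any change in the RNA content of a cell, and kallisto divides reads among similar transcripts. In a search for whole reads, 37.8% to 76.2% of the values under 20 in a library came within 0.05 of a multiple of its best step. Reads were therefore not recovered, no count test was run, and the depth is given as the sum of normalized counts.

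Groups follow the titles. For no-histidine replicate 1 the title gives day 6 but the time label day 9. The title was followed, and results were recomputed without this library. Days are those of the samples, since the series text gives other ones.

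Genes with 10 or more normalized counts in 2 or more libraries were kept, and log2(normalized count + 1) was fitted in R 4.3.3 by limma 3.58.1, using its mean-variance trend and a mean for each of the 9 groups, which left 16 residual degrees of freedom. Each comparison's two-sided p-values were adjusted by Benjamini-Hochberg over 18799 genes, and 0.05 was the threshold. The 25% against 50% step, planned as a test, is given as description, since its 25% libraries took part in choosing the members. The procedure was tested on simulated data. The members and the gene lists were chosen with earlier results of these data known. The genes named are the 10 members, for each the 2 genes with the most similar pattern among named genes whose highest group mean was 50 or more, from each list up to 3 called genes with the smallest adjusted p and such a mean, and genes that overlap a member or share its sequence. For SLC26A11 1 of the 2 similar genes is not reported here. Shared sequence was counted as distinct 31-base stretches among GENCODE 29 transcripts. Gene coordinates are from GENCODE 29 on GRCh38 and promoters from RefSeq on GRCh38.p14. Both may differ from the annotation the authors used. Alternatives changed the pseudocount, the filter or the scaling, dropped the trend, weighted libraries, added a replicate block, fitted the compared groups alone, or left out single libraries or the keratin-high ones. Plots came from matplotlib 3.10.9 under Python 3.11.15.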

Additional observations from a re-analysis of the deposited data

How the results depend on the processing

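No member passed in the main fit, so no call of a member could change its direction under an alternative. For the listed genes the alternatives gave counts and not the direction of each gene, apart from the fit without the keratin-high libraries. The number of members that passed was 0 at 50% against 100% on both days and between days at 50% and 100%, and remained 0 in these comparisons under the alternatives run, apart from 1 at 50% against 100% on day 6 with library weights, CNTN3. The listed genes that fell at 12.5% on day 6 were 20 with library weights and 7 to 14 when each library was left out, with 7 without replicate 1 at 100%. Without the keratin-high libraries 9 rose and 7 fell at 12.5% on day 6, and 8 fell without histidine. The share of all genes that passed is given for the main fit only. Nothing is therefore read from the CNTN3 pass, or from counts of listed genes under the alternatives, here and in the next paragraph. The cause of these changes was not tested.

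With each library left out, the listed genes that rose were 10 to 13 at 12.5% on day 9, 18 to 21 without histidine and 11 to 14 at 12.5% on day 6. Those that fell were 7 to 10 at 12.5% on day 9 and 14 to 18 without histidine. Same-numbered libraries correlated in their deviations at between -0.0841 and 0.0789, and libraries with different numbers at between -0.0698 and 0.0873. No pairing by number was seen, but with 2 or 3 libraries a group this check cannot exclude one. With the replicate block 0 members passed in each tested comparison, and of the listed genes 14 rose and 10 fell at 12.5% on day 9 and 22 rose and 17 fell without histidine. Of 1820 alternative values of the 110 untested differences, 94 moved by more than the spread between replicates. Upper-quartile rescaling put the median of all genes at 0.11 without histidine and at 0.13 at 12.5% on day 6. With 2 or 3 libraries a group, differences of members with low values, such as CNTN3 and SLC26A11 at 25% and above, may have been missed. How large a difference of a member could be detected was not tested.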
